A study of Mus musculus with 11 samples.

Results

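The transcripts of 10 genes that carry signals of bone morphogenetic proteins (BMPs), activins and transforming growth factor beta (TGF-beta) were followed in 3T3-L1 cells, an established mouse fibroblast line, derived from 1 clone, that forms fat cells when induced. The labels call these cultures preadipocytes. The 10 genes comprise 5 receptors (Bmpr1a, Tgfbr1, Bmpr2, Acvr2a and Tgfbr2), 2 Smads (Smad3 and Smad5) and 3 Id genes (Id1, Id2 and Id3). A probe set, the array's group of probes for a transcript, counted for a gene when the platform annotation gave it that symbol alone. The 10 genes had 28 such probe sets, 24 of which passed a filter on low values. All 10 genes passed, out of 12428 genes tested, and the brightest probe set stood for each gene.

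The cells had been given either t10c12 CLA, one isomer of conjugated linoleic acid, or linoleic acid (LA), the unconjugated fatty acid used as the control. RNA was taken after 4, 8 or 12 h. CLA had 2 arrays at each time, and LA had 1 array at 4 h, 2 at 8 h and 2 at 12 h. The design text speaks of another LA array for 4 h, which was not analysed here. The labels name no dose, no untreated cells and no agent given to induce fat cell formation. They call the replicates biological without saying whether each came from its own culture. The p-values therefore rest on the spread among these particular samples, part of which may be technical.

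As background, BMPs, activins and TGF-beta bind pairs of serine/threonine kinase receptors on the cell surface. A type II receptor phosphorylates a type I receptor, which phosphorylates Smad proteins that enter the nucleus with Smad4. BMP receptors act mainly through Smad1, Smad5 and Smad9, and TGF-beta and activin receptors through Smad2 and Smad3. The Id genes are among the best known direct targets of BMP signalling. Id proteins hold helix-loop-helix factors away from DNA, among them the E proteins. In preadipocytes BMP signalling is known for promoting commitment to the fat lineage, and TGF-beta for holding back differentiation.

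The arrays differed in ways that did not follow the fatty acid alone. The median deposited intensity per array ranged over 12.8–20.1 in CLA arrays and 10.6–18.9 in LA arrays, with both LA arrays of 12 h (11.6 and 10.6) dimmest. These 2 arrays also lay at one end of the first principal component (48.9 and 49.1, against -43.2 to 16.5 for the other 9), which held 35.6% of the variance. Replicates correlated at 0.970–0.978 across genes. The 3′ to 5′ signal ratio of Gapdh, a sign of RNA integrity, was 0.884–1.01 in CLA arrays and 0.983–1.18 in LA arrays, and the spiked Cre control gave 6153–6548 in CLA arrays and 6953–8235 in LA arrays. Their part in the results below was not tested, apart from the fit with array brightness given for 12 h. All 9 measured preadipocyte and fibroblast markers lay above the background level of 8.89 on every array, with summed intensities of 36790–40326 in CLA arrays and 37648–41296 in LA arrays. Of 5 measured adipocyte markers, Fabp4 lay at 174–473, Adipoq was above background on some arrays (0.33–12.1) and Lep, Cidec and Retn were at background on all, with sums of 198–476 in CLA arrays and 179–390 in LA arrays. Of 7 endothelial markers, Cdh5, Kdr and Tek exceeded background on some arrays (highest 17.3), and 4 did not on any, Pecam1 being at 0. The endothelial sums were 10.7–30.3 in CLA arrays and 24.5–35.7 in LA arrays, and the part of either list in the results was not tested. Of 7 macrophage markers, Csf1r (109–1171), Cd14 (328–564), Adgre1 (17.0–40.6) and Lyz2 (17.8–50.2) lay above background on every array and Cd68 on some. Itgam and Ptprc were at background on all arrays. Macrophage markers summed to 562–818 in CLA arrays and 681–1730 in LA arrays. Of 6 measured osteoblast and chondrocyte markers, Sox9 (250–555) and Sp7 (27.8–49.9) lay above background on every array. Of 6 skeletal muscle markers, only Ckm (12.8–31.5) did so. The part of these 3 lists in the results was not tested.

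At 12 h, 4 of the 5 receptors stood 1.71 to 3.04-fold higher in CLA than in LA, the receptor Tgfbr2 stood lower, and neither Smad nor any Id gene passed the test. A gene is said to have passed, or to have risen or fallen over time, when its p-value from limma, adjusted by Benjamini-Hochberg over all 12428 genes, was under 0.05. By that rule 5 of the 10 members passed at 12 h, against 18.8% of all genes, with 4 higher (9.46% of all genes) and 1 lower (9.33%). The arrays of the 2 fatty acids did not overlap for 7 of the 10, against 62.7% of all genes. Intensities below are quantile normalised values on a linear scale with no unit, and differences are CLA minus LA of log2(intensity + 1.84) ± SE. In a culture measured in bulk, fewer cells of a type and less RNA per cell cannot be told apart.

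Bmpr1a encodes the type I receptor through which BMPs most often act in preadipocytes. In CLA arrays it stood at 986 and 992 at 4 h, 938 and 819 at 8 h, and 729 and 743 at 12 h. In LA arrays it stood at 841 at 4 h, 784 and 820 at 8 h, and 419 and 441 at 12 h. The arrays overlapped at 8 h and lay well apart at 12 h. The difference at 12 h was 0.77 ± 0.09, or 1.71-fold, with an adjusted p of 0.000760.

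Tgfbr1 encodes the type I receptor of TGF-beta. The CLA arrays gave 1826 and 1971 at 4 h, 1426 and 993 at 8 h, and 915 and 832 at 12 h. The LA arrays gave 1901 at 4 h, 1097 and 1212 at 8 h, and 440 and 431 at 12 h. The arrays overlapped at 4 and 8 h, and at 12 h both CLA arrays lay above both LA arrays, by 1.001 ± 0.14, or 2.001-fold (adjusted p = 0.00134).

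Bmpr2 encodes the type II receptor specialised for BMPs. With CLA it measured 2938 and 3033 at 4 h, 2866 and 2127 at 8 h, and 2244 and 1925 at 12 h. With LA it measured 2898 at 4 h, 2253 and 2457 at 8 h, and 900.2 and 789 at 12 h. The LA arrays of 12 h stood apart from every other array. The difference at 12 h was 1.30 ± 0.13, or 2.46-fold (adjusted p = 0.000630).

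Acvr2a encodes a type II receptor that activins and some BMPs share. Under CLA its values were 708 and 658 at 4 h, 1085 and 754 at 8 h, and 944 and 728 at 12 h. Under LA its values were 767 at 4 h, 716 and 781 at 8 h, and 291 and 253 at 12 h. The CLA arrays lay below the single LA array at 4 h, overlapped with LA at 8 h and lay above LA at 12 h. The difference of 1.60 ± 0.17, or 3.04-fold (adjusted p = 0.000651), had the highest value among the 10 genes at 12 h.

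Tgfbr2, the type II receptor of TGF-beta, went the other way at 12 h. CLA arrays held 809 and 839 at 4 h, 663 and 746 at 8 h, and 748 and 716 at 12 h. LA arrays held 798 at 4 h, 752 and 774 at 8 h, and 918 and 932 at 12 h. The arrays did not overlap at any time. CLA lay above the single LA array at 4 h, though at -0.21 on the values as deposited and -0.05 with array brightness as a covariate. At 8 and 12 h CLA lay below both LA arrays. Of all genes, 75.7% had arrays that did not overlap at 4 h, 30.9% at 8 h and 62.7% at 12 h. Tgfbr2 stood 0.34 lower on the log2 scale in CLA than in LA at 12 h (SE 0.09, adjusted p = 0.0229). This call was lost in 10 of 24 alternatives. The difference was -0.00 (adjusted p = 0.993) on the values as deposited, without scaling, and leaving out either LA array of 12 h (0.0810 without replicate 1, 0.117 without replicate 2) or either CLA array of 12 h (0.0599 and 0.0706) also took the adjusted p over the threshold.

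**Figure D1:**
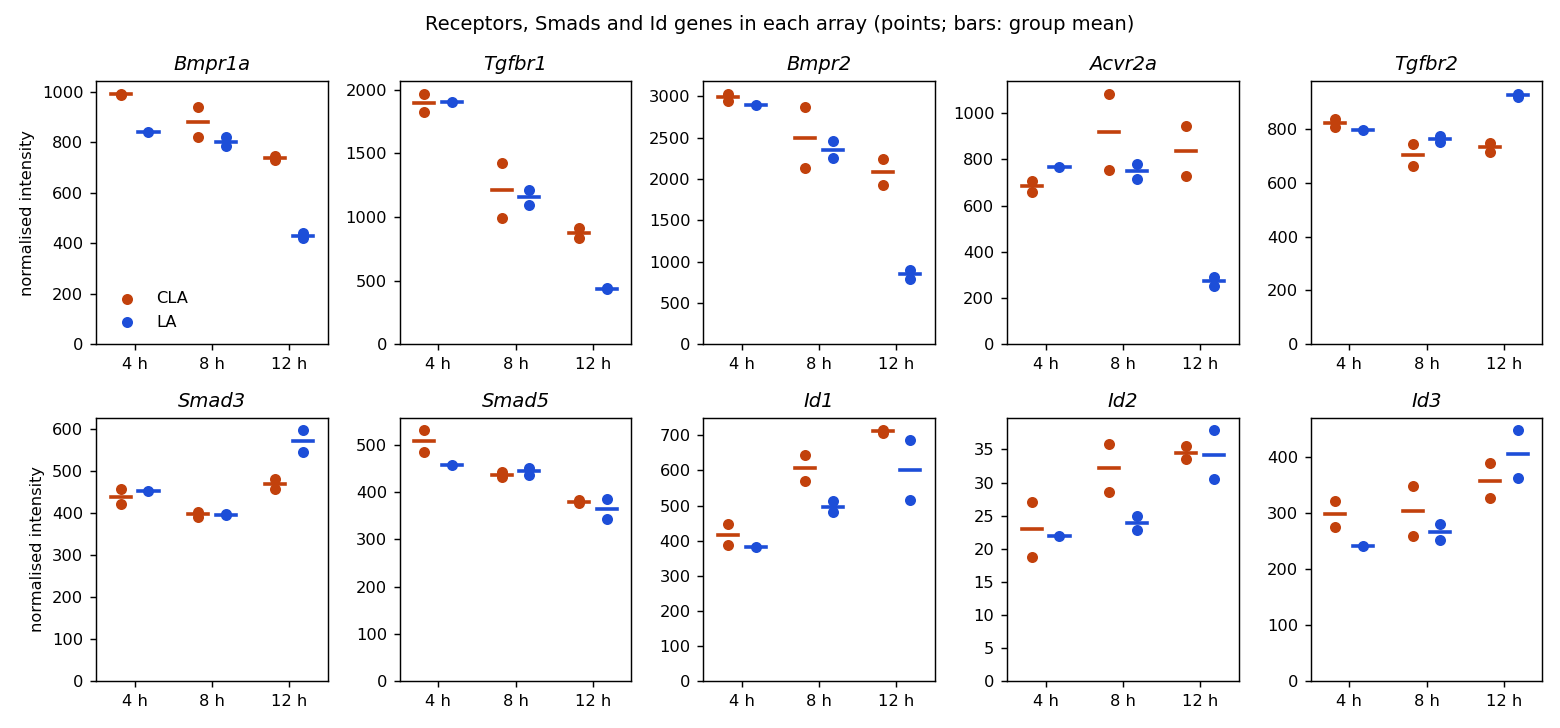
Quantile normalised intensity (linear axis from 0, no unit) of the brightest probe set of each of the 10 genes in all 11 arrays, with CLA left of LA at 4, 8 and 12 h. Points are arrays and short bars are group means. The LA arrays of 12 h stand lowest of all arrays for Bmpr1a, Tgfbr1, Bmpr2 and Acvr2a and highest for Tgfbr2 and Smad3, and Id1 stands higher in CLA than in LA at each time (at 4 h its difference was -0.13 on the values as deposited).

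Because 4 receptors stood high together, the sequences before their transcription starts are shown with that of Tgfbr2, which did not. Each is the stretch of 250 bases before the start in RefSeq's annotation of GRCm38.p6, 5′ to 3′ on the gene's strand. Capitals mark GGGCGG, the core of the GC box, or CCGCCC, the same motif on the opposite strand. The regions are chr14:34502547-34502796, minus strand for Bmpr1a, chr4:47352972-47353221, plus strand for the first of 2 Tgfbr1 entries, chr1:59764029-59764278, plus strand for Bmpr2, chr2:48813859-48814108, plus strand for Acvr2a and chr9:116175364-116175613, minus strand for Tgfbr2.
Bmpr1a: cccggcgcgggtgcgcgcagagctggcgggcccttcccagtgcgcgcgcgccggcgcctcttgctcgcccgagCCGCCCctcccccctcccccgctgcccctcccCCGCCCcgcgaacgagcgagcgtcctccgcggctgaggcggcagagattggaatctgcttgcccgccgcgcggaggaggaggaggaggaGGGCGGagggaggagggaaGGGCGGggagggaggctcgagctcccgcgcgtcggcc
Tgfbr1: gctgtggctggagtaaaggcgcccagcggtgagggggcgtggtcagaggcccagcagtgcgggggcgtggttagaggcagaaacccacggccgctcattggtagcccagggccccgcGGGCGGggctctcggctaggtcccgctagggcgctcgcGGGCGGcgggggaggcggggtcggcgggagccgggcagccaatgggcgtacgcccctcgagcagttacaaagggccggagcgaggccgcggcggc
Bmpr2: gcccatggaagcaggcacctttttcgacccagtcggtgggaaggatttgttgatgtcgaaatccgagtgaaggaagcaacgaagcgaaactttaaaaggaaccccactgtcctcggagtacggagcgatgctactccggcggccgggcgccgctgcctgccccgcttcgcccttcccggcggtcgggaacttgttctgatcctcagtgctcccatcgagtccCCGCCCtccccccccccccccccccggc
Acvr2a: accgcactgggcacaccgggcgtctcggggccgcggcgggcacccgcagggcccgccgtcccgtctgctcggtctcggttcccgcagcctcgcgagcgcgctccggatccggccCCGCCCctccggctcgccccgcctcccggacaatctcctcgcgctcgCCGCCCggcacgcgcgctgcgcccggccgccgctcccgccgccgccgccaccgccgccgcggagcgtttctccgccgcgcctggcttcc
Tgfbr2: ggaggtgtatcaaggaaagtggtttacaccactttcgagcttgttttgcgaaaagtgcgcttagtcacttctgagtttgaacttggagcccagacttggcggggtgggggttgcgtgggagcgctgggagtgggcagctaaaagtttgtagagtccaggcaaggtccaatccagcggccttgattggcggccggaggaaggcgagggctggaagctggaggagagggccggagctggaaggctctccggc
GGGCGG on either strand was found 4 times before the Bmpr1a start, 2 times before the Tgfbr1 start, 1 time before the Bmpr2 start, 2 times before the Acvr2a start and 0 times before the Tgfbr2 start. Of all 32851 promoter entries, 32.74% held it in a stretch of the same length. Entries matched 9 of the 10 genes (12 entries, since some genes have several starts), and 10 of these 12 held the motif, including those of Smad3, Smad5, Id2 and Id3, whose differences did not pass. GGCGCC, a GC-rich palindrome found in BMP response elements, occurred in 5 of the 12 entries and in 9.586% of all, CANNTG (the E-box) in 4 of the 12 and 66.22% of all, and TATAAA in 0 of the 12 and 12.37% of all. The motifs were searched on both strands, and GGCGCC and GGGCGG can share bases. Base composition was 78.8% G and C for Bmpr1a, 74.8% for the Tgfbr1 entry shown, 64.0% for Bmpr2, 82.0% for Acvr2a and 58.4% for Tgfbr2, against a median of 52.4% over all entries. The other Tgfbr1 entry had 52.8% and, like that of Tgfbr2, 0 matches of GGGCGG. Among genes whose differences did not pass, Smad3 had 69.2%, Id2 and Id3 62.8% each, and Smad5 entries 66.4% and 68.4%. The remaining Smad5 entry lay between those of Tgfbr2 and Bmpr2. Whether composition or motifs bear on the differences was not tested. These are matches of letters and no binding was measured.

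The Smads carry the receptors' signal to the nucleus. Smad3, which acts after TGF-beta and activin, stood at 480 and 457 in CLA and at 546 and 597 in LA at 12 h. Its arrays did not overlap, but the difference of -0.28 ± 0.10 did not pass (adjusted p = 0.0639), and on the values as deposited it was 0.11. Smad5, which acts after BMPs, stood at 384 and 377 in CLA and at 344 and 385 in LA at 12 h, with a difference of 0.06 ± 0.10 (95% interval -0.16 to 0.29). At 4 and 8 h the differences of both Smads lay between -0.05 and 0.15.

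Among the Id genes, Id1 stood higher in CLA than in LA at each time, except that its difference at 4 h was -0.13 on the values as deposited, and it passed the test at none of them. In CLA its intensity was 447 and 387 at 4 h, 571 and 644 at 8 h, and 715 and 708 at 12 h. In LA its intensity was 381 at 4 h, 482 and 512 at 8 h, and 686 and 515 at 12 h. The CLA arrays lay above the LA arrays at all 3 times, which was so for 1.63% of all genes. The differences were 0.13 ± 0.17 at 4 h, 0.29 ± 0.14 at 8 h and 0.26 ± 0.14 at 12 h, with adjusted p-values of 0.938, 0.986 and 0.197. At 12 h, 1 array decided the size: the difference was 0.46 without LA replicate 1 and 0.05 without LA replicate 2, and on the values as deposited, where the median gene stood at 0.28, it was 0.64 (adjusted p = 0.0432).

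Id3 measured 322 and 275 at 4 h, 259 and 349 at 8 h, and 389 and 327 at 12 h in CLA. With LA, Id3 measured 242 at 4 h, 253 and 281 at 8 h, and 449 and 363 at 12 h. Its arrays overlapped at 8 and 12 h, and its difference at 12 h was -0.18 ± 0.17 (adjusted p = 0.477), or 0.27 on the values as deposited. Id2 was dim, at 33.5 and 35.5 in CLA and at 30.5 and 37.9 in LA at 12 h, with a difference of 0.02 ± 0.28. The 95% intervals at 12 h were -0.04 to 0.56 for Id1, -0.60 to 0.64 for Id2 and -0.55 to 0.19 for Id3. Differences of the size seen in the brightest probe sets of Bmpr1a (0.77), Tgfbr1 (1.001), Bmpr2 (1.30) and Acvr2a (1.60) lay outside all 3. With the mean of probe sets, the 0.90 of Acvr2a and the 0.65 of Bmpr2 also lay outside all 3. The 0.52 of Bmpr1a by that mean lay inside those of Id1 and Id2.

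Set side by side at 12 h, the 5 receptors had a median difference of 1.001 and the 3 Id genes one of 0.02. The median of all genes was -0.15. These 5 receptors were chosen with earlier results of these data known, and the gap from the Id genes holds for them only. The 7 other receptors and co-receptors tested had a median of -0.27, and 0 of them passed. Measured from that median of all genes, the differences were 0.93 for Bmpr1a, 1.15 for Tgfbr1, 1.45 for Bmpr2, 1.75 for Acvr2a and -0.19 for Tgfbr2, against 0.41 for Id1, 0.17 for Id2 and -0.03 for Id3. Without scaling, all genes had a median of 0.28, and the 4 receptors higher in CLA than in LA had differences of 1.19, 1.42, 1.65 and 2.06 in the same order. With the log2 median of each array as a covariate, 160 genes passed at 12 h in place of 2335, and these 4 receptors were among them, at 0.65 for Bmpr1a, 0.66 for Tgfbr1, 1.01 for Bmpr2 and 1.28 for Acvr2a (adjusted p between 0.0265 and 0.0422). With each array but the LA array of 4 h left out in turn, their differences at 12 h stayed positive and past the threshold.

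**Figure D2:**
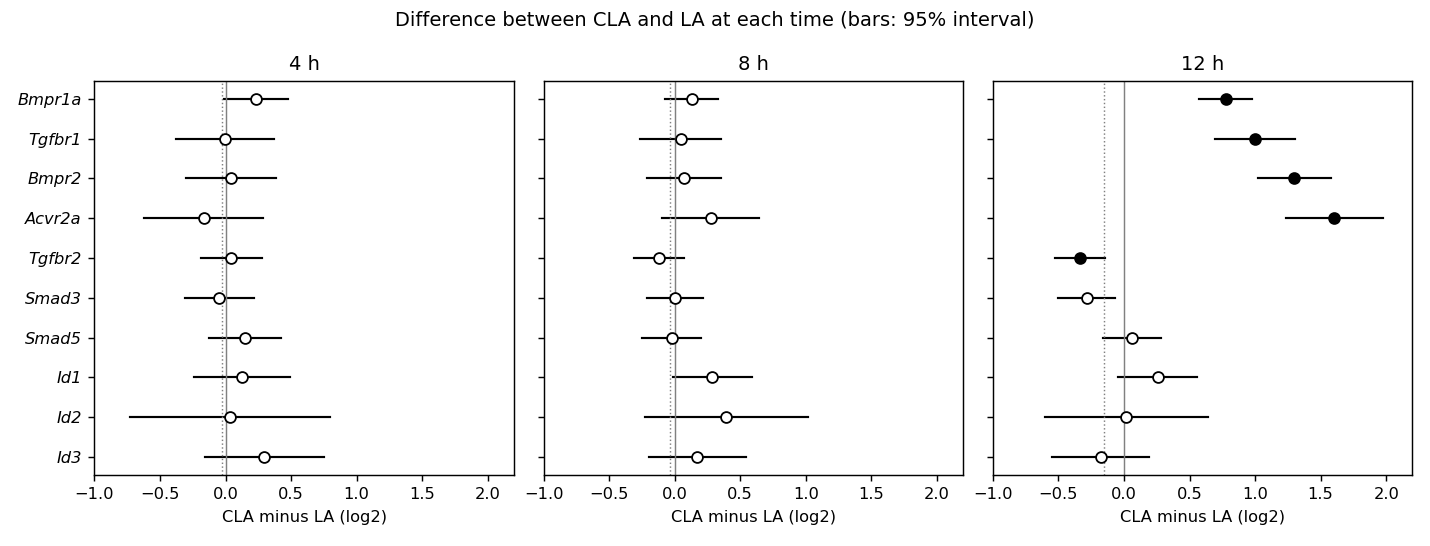
Difference between CLA and LA (log2, CLA minus LA) of each gene at 4, 8 and 12 h with its 95% interval. Filled points passed the test over all genes, open points did not, the solid line marks 0 and the dotted line the median of all genes. At 4 and 8 h every point is open, and at 12 h Bmpr1a, Tgfbr1, Bmpr2 and Acvr2a lie at 0.77 to 1.60 and Tgfbr2 at -0.34, a value that was -0.00 on the values as deposited.

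At 4 and 8 h none of the 10 genes passed. The test of limma passed 37 genes at 4 h (0.298%) and 0 genes at 8 h, where 491 genes (3.95%) had an unadjusted p under 0.05, and no member had such a p at either time. Differences of the 5 receptors ranged between -0.17 (Acvr2a) and 0.23 (Bmpr1a) at 4 h and between -0.12 (Tgfbr2) and 0.27 (Acvr2a) at 8 h. In the authors' deposited table the unadjusted p was 0.0271 for Bmpr1a and 0.0160 for Id3 at 4 h, and 0.000530 for Id1 and 0.0402 for Id3 at 8 h, and none passed after adjustment. The lone LA array of 4 h has no spread of its own, and the fit gave it that of the other groups.

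The members were also followed between 8 and 12 h within each fatty acid. In LA, 7 of the 10 genes passed between 12 and 8 h, against 22.3% of all genes, with 4 lower (11.4% of all genes) and 3 higher (11% of all genes). The 4 receptors fell by 0.90 (Bmpr1a), 1.40 (Tgfbr1), 1.48 (Bmpr2) and 1.45 (Acvr2a) on the log2 scale, with SEs of 0.09, 0.14, 0.13 and 0.17 and adjusted p-values of at most 0.000384. Both other probe sets of Tgfbr1 also fell and passed, but their LA values of 12 h lay near or below background. No size is therefore given for them. The other probe sets of Bmpr1a, Bmpr2 and Acvr2a fell less or did not pass. Those of Bmpr1a that passed had -0.56 ± 0.11 and -0.72 ± 0.13. The second of Acvr2a had -0.13 ± 0.12 (adjusted p = 0.506 in limma over all probe sets), and those of Bmpr2 had -0.37 ± 0.41 and -0.62 ± 0.47. When probe sets were averaged all 4 still passed, at -0.64, -1.83, -0.82 and -0.79 in the same order. Smad3 rose by 0.53 ± 0.10 (adjusted p = 0.00434), Id3 by 0.60 ± 0.17 (0.0278) and Tgfbr2 by 0.28 ± 0.09 (0.0421). On the values as deposited these 3 rises were 0.23, 0.26 and 0.02 and did not pass, and the Id3 call also ended when the first (0.154) or second (0.0909) LA array of 8 h or the first LA array of 12 h (0.178) was left out. The Tgfbr2 call was lost in 12 of 23 alternatives, among them each array of 8 or 12 h in LA left out and each CLA array of 4 h left out.

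In CLA none of the 10 genes passed between 12 and 8 h, against 0.402% of all genes. There Bmpr1a had -0.25 ± 0.09, Tgfbr1 -0.45 ± 0.14, Bmpr2 -0.25 ± 0.13 and Acvr2a -0.13 ± 0.17, and Bmpr1a, Tgfbr1 and Smad3 (0.24 ± 0.10) had an unadjusted p under 0.05. Without CLA replicate 2 of 8 h, 1 member passed. Both LA arrays of 12 h lay below all 9 other arrays for Bmpr1a, Tgfbr1, Bmpr2 and Acvr2a, as they did for 12.8% of all genes, and above all 9 for Tgfbr2 and Smad3, as for 25.2%.

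**Figure D3:**
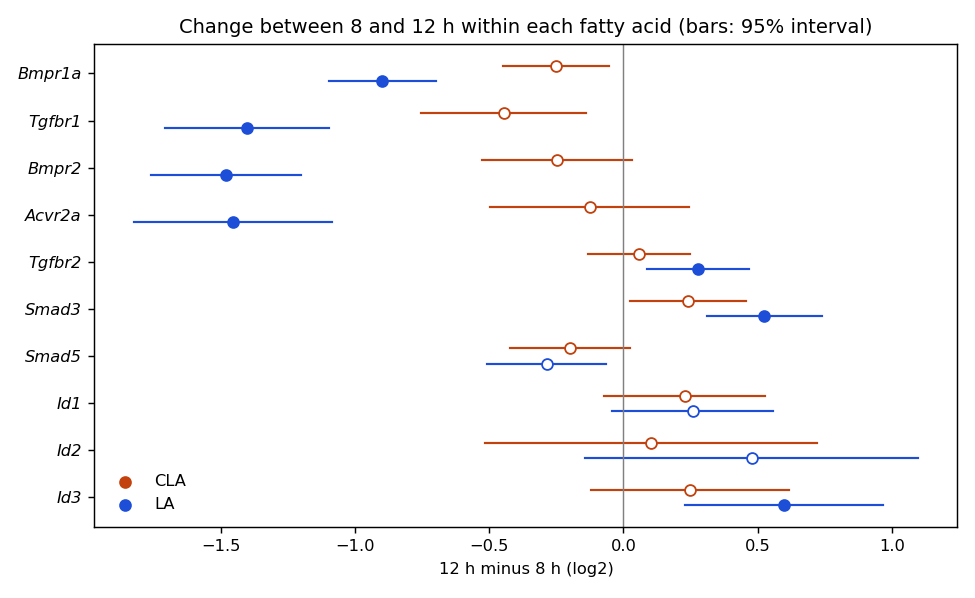
Change between 8 and 12 h (log2, 12 h minus 8 h) of each gene in CLA, drawn above, and in LA, drawn below, with its 95% interval. Filled points passed the test over all genes. The LA points of Bmpr1a, Tgfbr1, Bmpr2 and Acvr2a lie between -0.90 and -1.48, and the CLA points of the same genes lie between -0.13 and -0.45.

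Whether the difference between CLA and LA itself changed was tested directly. Between 8 and 12 h the difference grew by 0.65 ± 0.13 for Bmpr1a, 0.96 ± 0.20 for Tgfbr1, 1.23 ± 0.18 for Bmpr2 and 1.33 ± 0.24 for Acvr2a, with adjusted p-values of 0.0440, 0.0466, 0.0322 and 0.0370. These were 4 of the 10 members, against 1.17% of all genes. Each of the 4 calls was lost without either CLA array of 4 h, either LA array of 8 h, the second CLA array of 8 h, either LA array of 12 h or the first CLA array of 12 h (adjusted p between 0.0596 and 0.242), and those of Bmpr1a (0.0577) and Tgfbr1 (0.0513) also without the second CLA array of 12 h, with all values still positive. With the mean of probe sets none of the 4 passed, and the changes were 0.52 for Bmpr1a (adjusted p = 0.295), 1.497 for Tgfbr1 (0.186), 0.50 for Bmpr2 (0.550) and 0.73 for Acvr2a (0.168). Between 4 and 12 h it grew for Bmpr2 (1.26 ± 0.20, adjusted p = 0.0221) and Acvr2a (1.77 ± 0.27, 0.0186), against 1.43% of all genes, and Tgfbr1 had 1.003 ± 0.22 (0.0521). Both calls ended without either CLA array of 4 h or either LA array of 12 h (0.0553 to 0.0747), and that of Bmpr2 also without the first CLA array of 12 h (0.0534). No Smad or Id gene passed either term, and Id1 had -0.03 ± 0.19 between 8 and 12 h. An F test over all 3 times passed for Bmpr2 and Acvr2a (1.14% of all genes). The F test was sensitive to single arrays: 0 members passed without either CLA array of 4 h, the second LA array of 8 h, either LA array of 12 h or the first CLA array of 12 h, and 4 passed without either CLA array of 8 h.

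Between 8 and 4 h in CLA, 2 of the 10 genes passed, against 12.9% of all genes: Tgfbr1 fell by 0.67 (SE 0.14, adjusted p = 0.00855) and Id1 rose by 0.54 ± 0.14 (0.0230). Without CLA replicate 1 of 4 h 1 of them passed, and without CLA replicate 2 of 4 h none did, while the Id1 call also ended without CLA replicate 2 of 8 h (0.122). In LA, where 4 h had 1 array, Tgfbr1 fell by 0.72 (SE 0.17, adjusted p = 0.0203; 12.1% of all genes passed), a call lost in 9 of 22 alternatives. It ended without either LA array of 8 h (0.111 and 0.0567), with arrays scaled to the same median (-0.37, adjusted p = 0.187), with the mean of probe sets (-0.43, 0.501) and on the values as deposited (-0.79, 0.121). Id1 had 0.38 ± 0.17 (0.170).

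Averaged over the 3 times, the 4 receptors that were higher in CLA at 12 h passed again, and Tgfbr2, which was lower at 12 h, did not (-0.14 ± 0.05, adjusted p = 0.136). The averages were 0.38 ± 0.06 for Bmpr1a (adjusted p = 0.0150), 0.35 ± 0.09 for Tgfbr1 (0.0400), 0.47 ± 0.08 for Bmpr2 (0.0164) and 0.57 ± 0.10 for Acvr2a (0.0196), so that 4 of 10 members passed, against 7.16% of all genes in either direction and 4.14% higher. Without the arrays of 12 h none passed, and the averages were then 0.18, 0.02, 0.06 and 0.05. Single arrays changed the count too, which was 2 without either CLA array of 4 h, 0 without LA replicate 1 of 8 h and 1 without LA replicate 2 of 12 h. The Tgfbr1 average also lost its call without LA replicate 2 of 8 h (0.0750), LA replicate 1 of 12 h (0.0738) or CLA replicate 1 of 12 h (0.0723). Id1 averaged 0.22 ± 0.08 and did not pass (adjusted p = 0.123). An exact permutation test of the fatty acid within times (two-sided, 108 arrangements, smallest p possible 0.00926) gave 0.0185 for Bmpr1a and 0.0370 for Id1 before adjustment. For the other 8 genes the exact p lay between 0.111 and 0.472, and none of the 12428 genes passed after adjustment, while 18.4% had an unadjusted p under 0.05. With so few arrangements, a gene could pass after adjustment only if a large share of all genes reached the smallest p. The lack of adjusted calls therefore cannot tell whether any single gene differed.

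Other probe sets of the same genes gave a mixed picture at 12 h. All 3 of Tgfbr1 were higher in CLA: the dimmer ones measured 56.2 and 31.9 in CLA and 9.07 and 1.95 in LA, and 18.6 and 15.3 in CLA and 4.64 and 3.33 in LA. As these LA values lay at or below the background of 8.89, or just above it in 1 array, no size is given for the 2 dimmer probe sets. Of the 5 further probe sets of Bmpr1a, 2 passed (0.39 ± 0.11 and 0.59 ± 0.13), and the others had 0.37, 0.94 and 0.03. The second probe set of Acvr2a disagreed with the brightest one, with 285 and 262 in CLA and 233 and 246 in LA, a difference of 0.19 ± 0.12 (adjusted p = 0.322). For Bmpr2 the dimmer probe sets had 0.37 ± 0.41 and 0.30 ± 0.47. With the mean of all probe sets in place of the brightest, the difference at 12 h was 0.52 for Bmpr1a, 0.90 for Acvr2a and 0.65 for Bmpr2, which then did not pass (adjusted p = 0.1003). Tgfbr2 had no second probe set above the filter, and Id1 and Id3 had 1 probe set each.

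**Figure D4:**
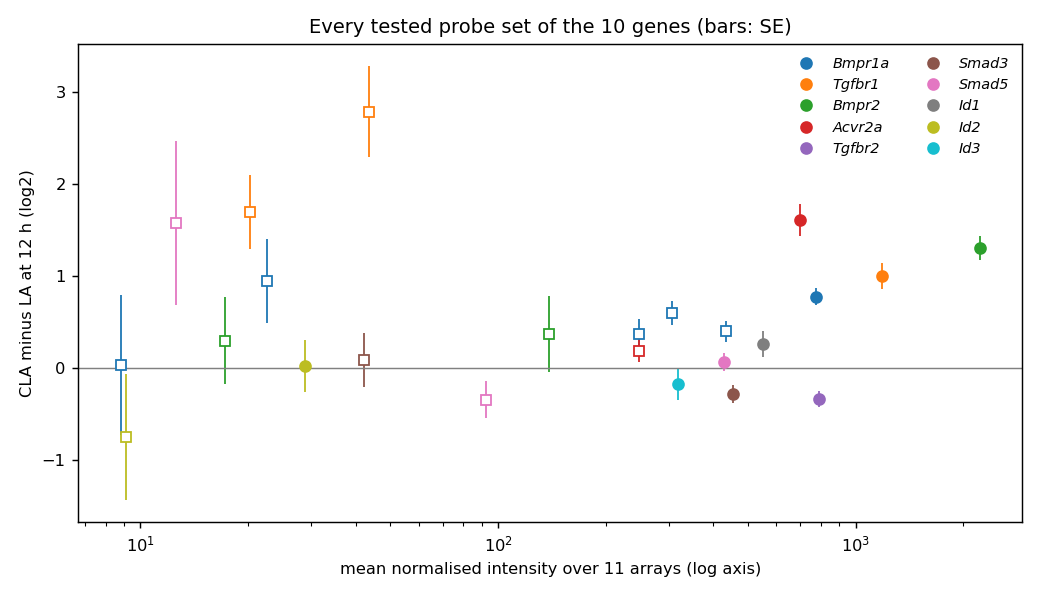
Difference between CLA and LA at 12 h (log2, CLA minus LA, bars are SE) of each of the 24 tested probe sets of the 10 genes against its mean normalised intensity over 11 arrays (log axis). Filled circles are the brightest probe set of a gene and open squares are the others. The brightest probe sets of Tgfbr1, Bmpr2 and Acvr2a lie at 1.001 to 1.60, and the open squares of Bmpr2 and Acvr2a lie at 0.19 to 0.37. The 2 open squares of Tgfbr1 rest on LA values near or below background.

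In the authors' deposited table for 12 h, the ratio was 2.005 for Bmpr1a, 2.17 for Tgfbr1, 2.49 for Bmpr2 and 3.04 for Acvr2a. The authors' deposited table gave 0.922 for Tgfbr2 (adjusted p = 0.238), 0.871 for Smad3, 1.11 for Smad5, 1.14 for Id1, 1.19 for Id2 and 0.941 for Id3. Its direction is not named in the headers and was taken as CLA over LA from its positive correlation with the differences across genes, so the signs are no separate evidence.

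Of 67 further genes of these pathways, 48 could be tested, 13 were below the filter and 6 had no probe set of their own. At 12 h, 7 of the 48 passed, 5 higher and 2 lower, against 18.8% of all genes. No ligand passed at 12 h (0 of 7 tested, median difference 0.06): Tgfb1 had -0.15 ± 0.17, Tgfb2 0.17 ± 0.18, Tgfb3 0.06 ± 0.12 and Inhba, a subunit of activin, 0.53 ± 0.34. The BMP ligands Bmp2, Bmp4 and Bmp7 were below the filter. No other receptor passed (0 of 7, median -0.27): the type I receptors Acvr1 and Acvr1b had -0.12 ± 0.08 and -0.27 ± 0.09, and the co-receptor Tgfbr3 had 0.15 ± 0.06. Smad1, Smad2 and Smad4 had -0.21 ± 0.12, 0.04 ± 0.13 and 0.01 ± 0.09 at 12 h, and none of the 3 passed.

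Among extracellular antagonists, 1 of 5 tested passed at 12 h (median 0.18). Twsg1, a secreted protein that binds BMPs, measured 745 and 636 in CLA and 412 and 388 in LA. It stood 0.78 ± 0.11 higher in CLA than in LA (adjusted p = 0.00126). Its average over the 3 times, 0.46 ± 0.07, passed too (0.0150), though not without LA replicate 1 of 8 h. The activin-binding Fst had -0.18 ± 0.08 and the BMP-binding Grem1 had 0.18 ± 0.16. Crim1, a membrane protein that binds BMPs, measured 115 and 108 at 8 h and 110 and 153 at 12 h in CLA. With LA it measured 213 and 219 at 8 h and 103 and 102 at 12 h. Its difference was -0.94 ± 0.16 at 8 h and 0.33 ± 0.16 at 12 h, neither of which passed, and the change between them of 1.28 ± 0.22 did (adjusted p = 0.0370). That call was lost without either CLA array of 4 h, either LA array of 8 or 12 h, the second CLA array of 8 h or the first CLA array of 12 h (0.0521 to 0.223), and the mean of its probe sets gave 0.66.

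Among 10 intracellular inhibitors 1 passed at 12 h (median -0.08). Skil, which encodes the Smad corepressor SnoN, measured 1861 and 1363 in CLA and 1031 and 1058 in LA, a difference of 0.61 ± 0.19 (adjusted p = 0.0448). That call was lost without CLA replicate 1 (0.262) or without either LA array of 12 h (0.151 and 0.154), and without either LA array of 8 h (0.0652 and 0.0650). The inhibitory Smads, Smad6 and Smad7, had -0.31 ± 0.12 and -0.07 ± 0.16, and the decoy receptor Bambi -0.57 ± 0.21.

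For latency and activation of TGF-beta 2 of 7 tested passed (median -0.19). Thbs1, a matrix protein that can activate latent TGF-beta, stood 0.38 ± 0.08 higher in CLA than in LA (adjusted p = 0.00850). Its difference was 0.08 with arrays scaled to the same median, and its call ended without CLA replicate 1 or LA replicate 2 of 12 h. Ltbp2, a matrix protein of the latent TGF-beta binding family, stood 0.22 lower in CLA than in LA (SE 0.06, adjusted p = 0.0381). That call was lost in 14 of 24 alternatives, among them each LA array of 8 or 12 h and each CLA array of 4 or 12 h left out. Among 6 other target genes tested the median was -0.08. Tgfbi, a matrix gene induced by TGF-beta, measured 965 and 1064 in CLA and 1308 and 1436 in LA, a difference of -0.43 ± 0.08 (adjusted p = 0.00623). The Tgfbi call ended without LA replicate 2 (0.0635) and on the values as deposited (-0.15). The TGF-beta target Ccn2 had -0.25 ± 0.12 and Id4 had 0.09 ± 0.15.

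The E proteins are the helix-loop-helix factors that Id proteins bind, and 2 of 3 passed (median 0.40). Tcf4 measured 240 and 293 in CLA and 150 and 180 in LA at 12 h, a difference of 0.68 ± 0.15 (adjusted p = 0.0110). Its call was lost without LA replicate 1 or CLA replicate 2 of 12 h. Tcf12 measured 903 and 1070 in CLA and 716 and 777 in LA, a difference of 0.40 ± 0.11 (0.0353). The Tcf12 call was lost in 10 of 24 alternatives. Among them were LA replicate 1, LA replicate 2 or CLA replicate 2 of 12 h and either LA array of 8 h left out. Tcf3 had -0.18 ± 0.17.

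**Figure D5:**
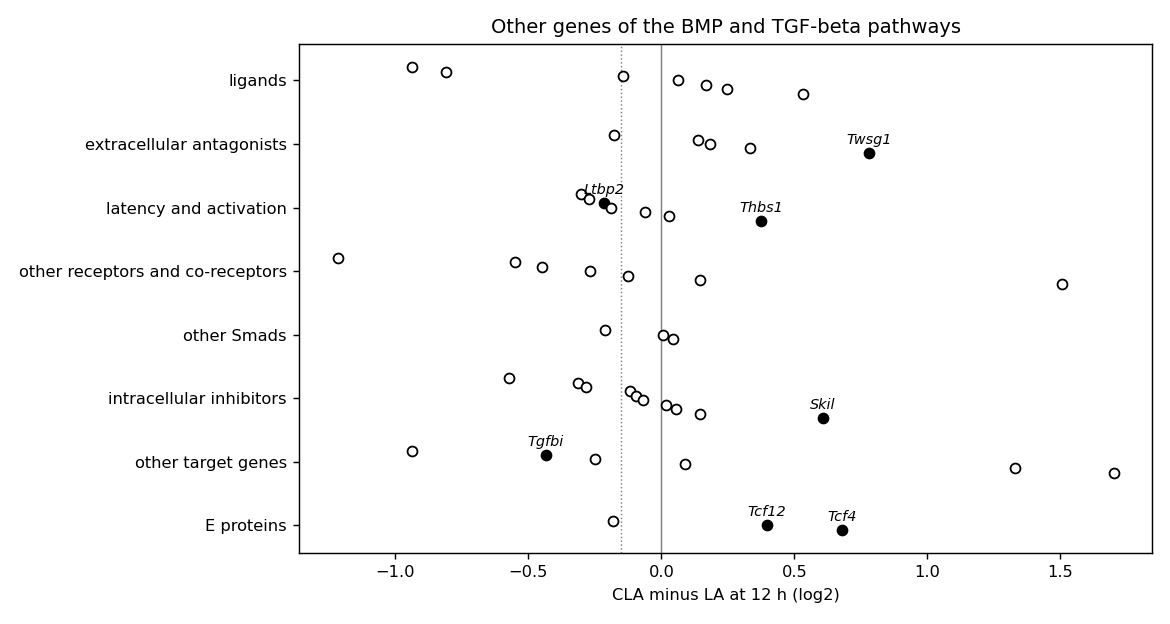
Difference between CLA and LA at 12 h (log2, CLA minus LA) of the 48 further genes of the pathways, by list. Filled, named points passed the test over all genes, open points did not, the solid line marks 0 and the dotted line the median of all genes. Twsg1, Tcf4, Skil, Tcf12 and Thbs1 lie at 0.38 to 0.78, and Tgfbi and Ltbp2 lie below 0.

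The genes whose pattern over the 11 arrays was most like that of Bmpr1a were Mier1, Spag9 and Ppp4r2, with a root mean square difference of mean-centred log2 values of 0.0628, 0.0772 and 0.0777, against a median of 0.553 over all genes. Mier1 measured 204 and 193 in the LA arrays of 12 h and 313–442 in the 6 CLA arrays. Those most like Id1 were Sec13, Stard3nl and Efna4, at 0.101, 0.105 and 0.125, against a median of 0.410. These arrays share their scaling, so likeness is a description only.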

How the data were processed

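Total RNA of 3T3-L1 cultures was extracted with Trizol, labelled with biotin as cRNA and hybridised to single-colour Affymetrix arrays, per the labels' protocols. The deposited value table gives each probe set's intensity on each array, on a linear scale and with background subtracted, since some values lie below 0. Its software was not given in the sources used here. Beside it, the authors also deposited a table for each time with a ratio of the 2 fatty acids, its log10 and a p-value, which per the file headers came from Rosetta Resolver. The 6 columns of pooled intensities in these tables were left out.

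Quantile normalisation put the 11 arrays on 1 scale. Negative values became 0, and log2 was taken after adding 1.84, the 25th percentile, so fold changes of dim genes are understated. The filter kept 26629 of 45101 probe sets, those with means over 7.81 (the 40th percentile), without the 64 array controls. Of the other 45037, counted before the filter, 34945 were annotated to 1 gene symbol, 932 to several and 9160 to none. Those with 1 symbol that passed the filter were used. Taking the brightest probe set left 12428 genes, of which 5748 had more than 1 to choose from. The background level of 8.89 is the 95th percentile over 27 control probe sets for bacterial transcripts. These were taken as not spiked in, which the sources used here were not seen to state.

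Contrasts of 6 group means were fitted in limma 3.58.1 (R 4.3.3) with an intensity trend, 5 residual and 6.10 prior degrees of freedom, and Benjamini-Hochberg adjustment over all genes. Errors of log2 differences are standard errors. On simulated data for CLA minus LA at 12 h with 12428 genes, 16.7% of 66 genes changed by 0.5 on the log2 scale were recovered, 50.7% of 67 changed by 1 and 89.6% of 67 changed by 2, with 7 false calls. No other gene was changed in the simulation, whereas 18.8% of all genes passed at 12 h in the data. Because the adjustment depends on that share, these rates need not hold for the data. Precision is limited by having 1 or 2 arrays in a group. The 10 genes and the lists were chosen with earlier results of these data known. From each list, genes that passed a contrast, or else up to 3 with the lowest p for the average over times, were to be named, and any other list gene in the text was chosen after its values were seen. Alternatives covered scaling, offset, filter, probe set choice, trend, samples fitted, replicate block, array brightness and each array but the LA array of 4 h left out in turn.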

Additional observations from a re-analysis of the deposited data

Results flagged for a closer look

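The difference between CLA and LA (CLA minus LA, log2) changed with time for 4 receptors. Between 8 and 12 h the change of the difference was 0.65 ± 0.13 for Bmpr1a, 0.96 ± 0.20 for Tgfbr1, 1.23 ± 0.18 for Bmpr2 and 1.33 ± 0.24 for Acvr2a, and the limma terms passed with adjusted p-values of 0.0440, 0.0466, 0.0322 and 0.0370. Between 4 and 12 h it was 1.26 ± 0.20 for Bmpr2 and 1.77 ± 0.27 for Acvr2a (adjusted p = 0.0221 and 0.0186). These 6 values were positive in all 22 alternatives run for each, but the terms between 8 and 12 h lost their call in 15 (Bmpr1a), 14 (Tgfbr1), 11 (Bmpr2) and 12 (Acvr2a) of them, and those between 4 and 12 h in 9 (Bmpr2) and 8 (Acvr2a).

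Tgfbr2 arrays stood apart in opposite directions at different times, with CLA above LA at 4 h and below LA at 8 and 12 h. At 4 h the difference was -0.21 on the values as deposited and -0.05 with array brightness as a covariate. Of all genes, 75.7% had arrays that did not overlap at 4 h, 30.9% at 8 h and 62.7% at 12 h. The change of the Tgfbr2 difference was -0.16 ± 0.14 between 4 and 8 h and -0.38 ± 0.14 between 4 and 12 h. Neither change passed in limma (adjusted p = 0.999 and 0.167). The comparison at 4 h rests on 1 LA array. Dixon's test for a sample far from its group was not run, since no group had 4 arrays.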

How the results depend on the processing

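The count of members that passed was 4–6 at 12 h and 0 at 4 and 8 h in all 24 alternatives, and 5–8 for 12 h minus 8 h in LA in all 23. The averaged count of 4 became 0 on the values as deposited, 1 with no filter on dim probe sets, 1 when probe sets were averaged, 0 with no intensity trend and 0 without the arrays of 12 h. Over all genes the average passed for 890 in the main fit, and for 17, 96, 435, 1 and 10 in these alternatives in the same order. The count of 2 in the F test became 4 as deposited, 4 with cyclic loess, 4 with the filter at the 60th percentile, and 0 with no filter, with the mean of probe sets, with no intensity trend and with array brightness as a covariate. Over all genes the F test passed for 142 in the main fit, and for 764, 265, 234, 73, 13, 5 and 4 in that order. For 8 h minus 4 h in CLA the count of members was 1 as deposited, 0 with no filter, 1 with the mean of probe sets and 0 with no trend. Of all genes, 1599 passed there in the main fit, and 779, 1154, 1209 and 964 in these alternatives. Leaving out 1 array in turn gave 0–5 for the average, 0–4 for the F test, 0–3 for 8 h minus 4 h in CLA and 0–1 for 12 h minus 8 h in CLA.

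Of 2518 alternative values, 49 changed sign, all of them for differences that did not pass. As deposited these were, at 4 h, Bmpr1a -0.020, Bmpr2 -0.14, Tgfbr2 -0.21, Smad5 -0.13, Id1 -0.13 and Id2 -0.30, at 8 h Smad5 0.085, at 12 h Smad3 0.11 and Id3 0.27, and Id1 -0.048 for 12 h minus 8 h in LA. With arrays scaled to the same median they were Tgfbr1 0.15 and Smad3 0.045 at 4 h and Tgfbr1 -0.10, Bmpr2 -0.13 and Smad3 -0.072 at 8 h. Cyclic loess gave Tgfbr1 0.015 at 4 h. The mean of probe sets gave Tgfbr1 0.64, Bmpr2 -0.31 and Smad3 0.39 at 4 h, Bmpr1a -0.00055 and Smad5 0.021 at 8 h, Id2 -0.37 at 12 h and Smad3 0.11 on average. With array brightness as a covariate they were Tgfbr1 0.27, Acvr2a 0.089, Tgfbr2 -0.047 and Id2 -0.12 at 4 h, Tgfbr1 -0.092 and Bmpr2 -0.046 at 8 h and Id3 0.11 at 12 h. The average without 4 h gave Id3 -0.0018, and the authors' deposited ratio gave Smad5 0.029 at 8 h. With 1 array left out in turn, values that changed sign ranged at 4 h over -0.057 to 0.052 (Tgfbr1), -0.11 to 0.012 (Smad3) and -0.21 to 0.28 (Id2), at 8 h over -0.22 to 0.31 (Tgfbr1), -0.15 to 0.28 (Bmpr2), -0.019 to 0.021 (Smad3), -0.049 to 0.000021 (Smad5) and -0.041 to 0.39 (Id3), and at 12 h over -0.018 to 0.14 (Smad5) and -0.13 to 0.17 (Id2). The cause of these changes was not tested.

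Same-numbered arrays of CLA and LA were not paired in the main fit. Their deviations from the group means correlated at 0.00956 at 8 h and 0.0743 at 12 h. With 2 arrays in a group and after quantile normalisation, such values cannot show whether same-numbered arrays were handled together. A replicate block shared over times left 5 members passing at 12 h, 7 for 12 h minus 8 h in LA and 2 for 8 h minus 4 h in CLA, and gave Tgfbr1 0.041 and Id2 -0.070 at 4 h. A replicate block within each time left 5 at 12 h and gave Smad3 0.012 and Id2 -0.21 at 4 h. Over all genes the count at 12 h was 2335, against 1312 with arrays scaled to the same median, 1303 with no filter, 1057 with no trend, 1468 with the 12 h arrays alone, 160 with array brightness as a covariate and 706–3261 with 1 array left out. Values near the background level of 8.89 limit what Id2 and the dimmer probe sets can show.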

Other observations

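Between 4 and 8 h several antagonist, matrix and target genes of these pathways rose in both fatty acids. Among 7 ligands tested, 1 passed in CLA and 2 in LA. Inhba, the subunit of activin A, measured 7.99 and 20.2 at 4 h and 105 and 86.4 at 8 h in CLA, with the first array of 4 h below the background of 8.89. With LA it measured 25.9 at 4 h and 87.2 and 59.9 at 8 h. Its change of 8 h minus 4 h passed in CLA in all 23 alternatives (adjusted p = 0.000399), while in LA it was 1.42 ± 0.42 (0.0484), a call lost in 16 of 22 alternatives and as low as 0.05 with a replicate block within each time. Crim1 passed in opposite directions, with -0.78 ± 0.16 in CLA (0.00769) and 0.73 ± 0.19 in LA (0.0334), calls lost in 4 of 23 and 13 of 22 alternatives. Bmper, a secreted regulator of BMPs, rose by 1.33 ± 0.08 in CLA and 1.1 ± 0.10 in LA. Thbs1 rose by 1.32 ± 0.08 in CLA and 1.43 ± 0.09 in LA, and Ccn2, a matrix-associated target of TGF-beta, by 1.17 ± 0.12 in CLA and 1.40 ± 0.14 in LA. Fst, which binds activins, rose by 0.53 ± 0.08 in CLA and 0.52 ± 0.10 in LA, where the call ended without LA replicate 2 of 8 h (0.0519). The co-receptor Tgfbr3 fell by 0.48 on the log2 scale in both, but by 0.10 in LA with arrays scaled to the same median. In CLA, Fkbp1a (0.48), Id4 (0.64), Ltbp2 (0.57), Acvr1 (0.30) and Tgfbi (0.30) rose too. In LA, Fkbp1a (0.36), Bambi (0.98), Ltbp2 (0.67) and Acvr1 (0.46) rose, as did Bmp6 and Msx2. No size is given for Bmp6 and Msx2, whose LA values of 4 h (0 and 0.633) lay below background. Among these further genes only the Ltbp2 calls held in every alternative. All of these changes passed in limma over all genes, where 12.9% passed in CLA and 12.1% in LA. The LA changes rest on 1 array at 4 h.

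Between 8 and 12 h in LA, Crim1 fell by 1.06, Skil by 0.90, Grem1 by 0.73, Twsg1 by 0.69 and Tgfbr3 by 0.69 on the log2 scale. Tcf4 fell by 0.61, Acvr1b by 0.41, Thbs1 by 0.30 and Smad4 by 0.29, while Ltbp3 rose by 0.30 and Ltbp2 by 0.24. No other gene of the 48 passed, and 22.3% of all genes did. Calls were lost in 5 of 23 alternatives for Tcf4, 5 for Acvr1b, 9 for Thbs1, 14 for Smad4, 8 for Ltbp3 and 9 for Ltbp2. The Skil call ended without the first LA array of 8 h (0.0585) or 12 h (0.0504), and the Grem1 call without either LA array of 8 h (0.0794 and 0.0536) or the first of 12 h (0.0830). In CLA, Tgfbr3 fell by 0.50 and Tgfbi by 0.56 over the same hours (0.402% of all genes). These calls ended without the first CLA array of 8 h (0.0553 for Tgfbr3, 0.0727 for Tgfbi), and that of Tgfbi also without any other array but those of LA at 12 h and the second of CLA at 12 h (0.0549 to 0.0804; the LA array of 4 h was never left out). Msx2, a BMP target, was dim. CLA arrays gave 22.1 and 23.2 at 4 h, 16.8 and 18.0 at 8 h, and 44.9 and 19.6 at 12 h. LA arrays gave 0.633 at 4 h, 17.7 and 16.2 at 8 h, and 21.1 and 5.06 at 12 h. Its average over the 3 times passed (adjusted p = 0.0323), but the LA array of 4 h and 1 of 12 h lay below background, the LA array of 4 h was never left out alone, and without the arrays of 4 h the average did not pass (0.279). That call was lost in 14 of 24 alternatives, among them 7 of the 10 with 1 array left out (0.0625 to 0.0941).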
